A study of Arabidopsis thaliana with 24 samples.

Results

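After 120 min of light, 136 of the 22217 Arabidopsis probe sets had a mean log2 signal at least 1 higher in fc2 than in wt and also at least 1 higher in flu than in wt. These 136 probe sets are the subject here. They were chosen by the group means at 120 min, and 4 further probe sets that met both thresholds (STZ, GRX480, AT1G53540 and AT1G76640) were left out by name. Of the 136, 59 carried 1 named gene each (59 genes), 4 carried several genes and 73 had no listed gene, against 13171, 482 and 8564 of all probe sets. The members include small heat-shock proteins and their co-chaperones, calcium-binding proteins, enzymes of detoxification, and genes whose level fell in light in wt.

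RNA came from whole seedlings of the Col-0 accession, 4 days old. Seeds were chilled at 4 °C for 4 days, lit for 2 h to start germination and then grown for 4 days in darkness at 22 °C. The groups were fc2 (the fc2-1 allele), flu, fc1 (the fc1-1 allele) and wt, each taken in the dark (0 min) or after 30 or 120 min of white light at 120 µmol m-2 s-1. Each of the 12 groups had 2 arrays, which the labels call biological replicates without saying more about their origin, so each p-value sets a difference against the spread between arrays, which may be technical. A value below is the log2 signal of a probe set, and an error is the standard error (SE) of a difference between 2 group means (n = 2 each) unless stated otherwise.

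Tetrapyrrole synthesis makes haem and chlorophyll from shared precursors in the plastid. FC1 and FC2 are ferrochelatases, which insert iron into protoporphyrin IX to make haem, and FLU is a negative regulator of the pathway's early steps. Without FLU, dark-grown seedlings overproduce protochlorophyllide, and tetrapyrroles that are not used pass light energy to oxygen and produce singlet oxygen. Small heat-shock proteins hold unfolded proteins, HSP70 and HSP90 with their co-chaperones refold them, and both groups are known to respond to heat and to reactive oxygen species. No probe set named FC1, FC2 or FLU alone, so the targeted genes did not check the labels.

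Across the series, array medians lay between 5.98 and 6.23 and replicate arrays correlated at 0.9907 to 0.9986 over all probe sets. The chloroplast markers RCA and PRK, the 2 measured of 4 fixed, had an average at 120 min of 11.9 and 11.85 in fc2 and of 9.125 and 8.735 in flu, against 12.96 and 12.73 in wt. The root hair markers EXPA7 and EXPA18 averaged between 4.655 and 5.93 on all 24 arrays. The mean of 4 genes of seed maturation, namely PAP85, OLEO3, M10 and M17, differed between arrays of the same group. At 120 min it was 6.535 and 7.627 in fc2, 9.615 and 7.608 in flu, and 5.497 and 7.883 in wt. The 4 genes did not all move together. In flu against wt at 120 min 1 of them was called higher and 1 lower, with a median of 2.49, where 28.4% and 18.2% of all probe sets were called. In whole seedlings, fewer cells of a type and less RNA per cell cannot be told apart. The part of these marker levels in the results below was not tested, except where values with a seed-maturation covariate are given.

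At 120 min the differences from wt that chose the members ran from 1.0 to 4.515 in fc2, with a median of 1.4, and from 1.005 to 4.295 in flu, with a median of 1.725. The difference was larger in fc2 for 55 members and larger in flu for 81, and 18 members were at least 2 higher in both. For 129 of the 136, all 4 fc2 and flu arrays lay above both wt arrays. Of the probe sets at least 1 higher in fc2 (252), the overlap with flu took 55.6%, and of those at least 1 higher in flu (1587) it took 8.8%. In the test across all probe sets, 124 members were called higher in fc2, where 9.71% of all probe sets were called higher, and 126 in flu, where 28.4% were. These counts follow from the choice of members and are given only as a description.

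The members with a named gene nearest the threshold were AT4G01870 (1.01 in fc2 and 1.775 in flu), AT3G56350 (1.01 and 2.56) and AT1G25275 (1.17 and 1.02). Just outside it lay AT1G26800 (0.995 and 1.47), AT2G23110 (0.985 and 2.16) and IQD26 (0.985 and 1.19). The largest difference shared by both mutants was that of a probe set with no listed gene, noted after its values were seen, at 11.99 and 12.17 in fc2 and 11.11 and 11.5 in flu, against 7.73 and 7.78 in wt. The map of group means shows that the members reached their 120 min levels by different courses.

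**Figure D1:**
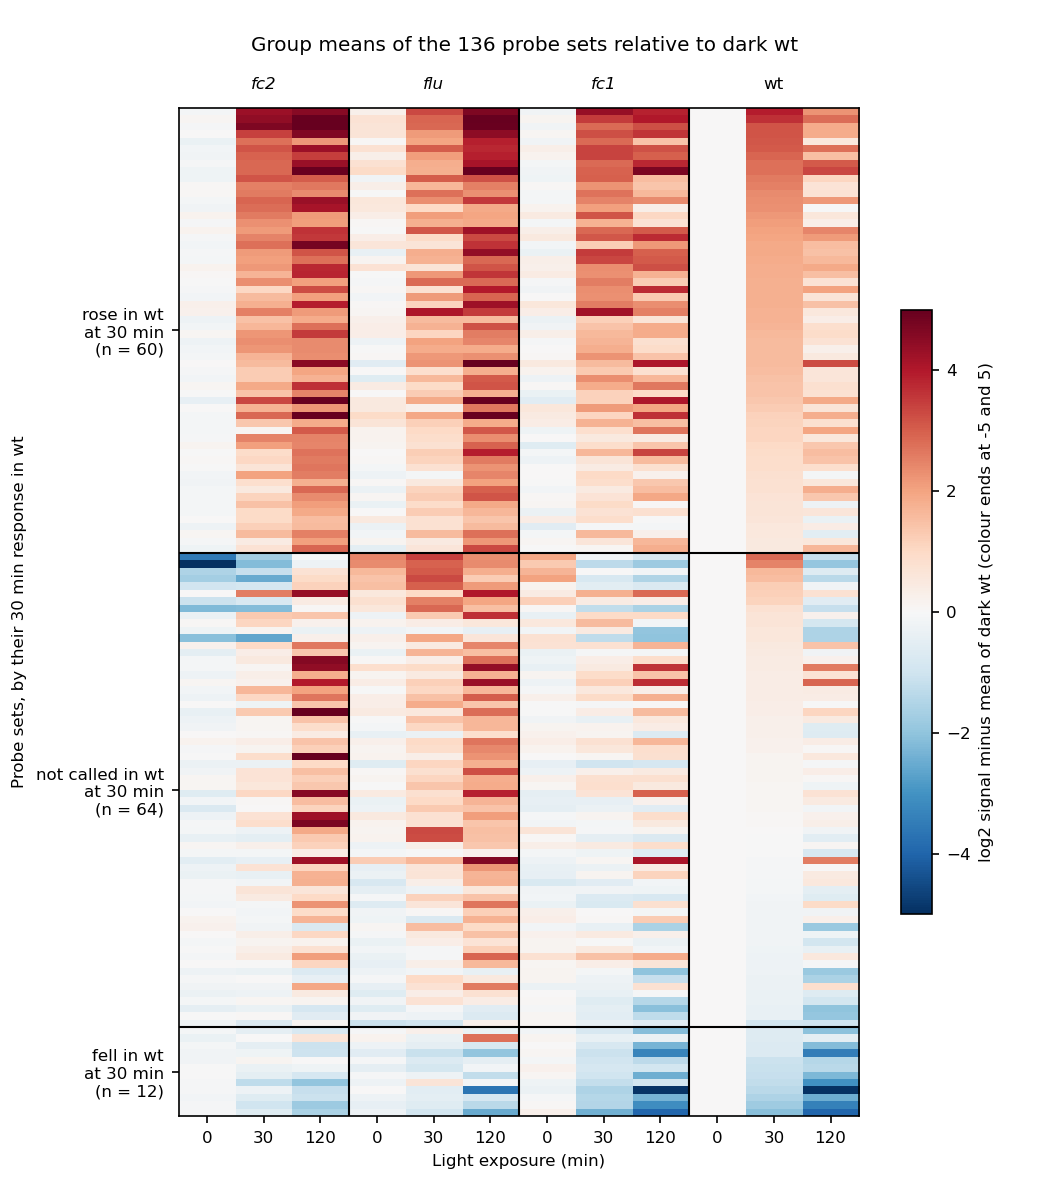
Mean log2 signal of each of the 136 probe sets (rows) in each genotype and time (columns, min of light) minus the mean of dark wt, with colour from blue (lower) to red (higher). Rows are split by the 30 min response of wt into 60 that rose, 64 not called and 12 that fell, and at 120 min the fc2 and flu columns are redder or less blue than the wt column in all 3 blocks.

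Small heat-shock proteins gave more members than any other of the fixed lists. Of the lists on protein folding, 5 of the 10 measured small heat-shock proteins and 2 of the 10 measured chaperones and co-chaperones were members, where 136 of all 22217 probe sets were. In every list count, the genes left out by name count as non-members although they met both thresholds. A further 2 members with such a role, AT1G71000 (a DnaJ-type co-chaperone) and Fes1A (AT3G09350, a nucleotide exchange factor of HSP70), were added after their values were seen.

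The small heat-shock protein AT1G54050 had the largest difference shared by both mutants among members with 1 named gene. It stood at 11.61 and 11.82 on the fc2 arrays at 120 min and at 10.86 and 10.93 on the flu arrays, against 7.81 and 7.85 on the wt arrays, 3.88 and 3.06 higher. At 30 min it was at 10.54 and 10.73 in fc2 and at 8.58 and 9.11 in flu, against 8.59 and 9.66 in wt. Both fc2 arrays were thus already above both wt arrays at 30 min, while the flu and wt arrays overlapped. The 30 min difference from wt was 1.51 (SE 0.235, adjusted p = 0.00137) in fc2 and -0.28 (SE 0.235, adjusted p = 0.365) in flu. In the dark, its fc2 arrays (5.93 and 5.86) lay beside those of wt (5.9 and 6.04), and its flu arrays were at 6.5 and 6.74.

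AT1G52560, another small heat-shock protein, was at 4.2 or less on all arrays other than those of fc2 and flu at 120 min. At that time it was at 8.22 and 8.11 in fc2 and at 4.91 and 5.82 in flu, against 3.47 and 3.83 in wt. The fc2 difference of 4.515 was the largest of any member in that mutant, and the flu difference was 1.715. AT1G71000 had a similar course, with 8.54 and 8.59 in fc2 and 6.81 and 6.67 in flu at 120 min, against 3.97 and 4.45 in wt. At 30 min its arrays lay between 4.17 and 4.74 in all 4 genotypes, so its separation came after 30 min.

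AT5G37670 and AT2G29500 had opposite standings in flu at the 2 light times. At 30 min AT5G37670 was at 7.57 and 7.43 in flu, against 8.46 and 9.11 in wt, a difference of -1.28 (SE 0.19, adjusted p = 3.6e-05). At 120 min it was at 10.43 and 10.76 in fc2 and at 8.4 on both flu arrays, against 6.23 and 6.73 in wt. The flu arrays thus lay below both wt arrays at 30 min and above both at 120 min. AT2G29500 was at 6.7 and 6.78 in flu at 30 min, against 7.39 and 8.64 in wt, a difference of -1.27 (SE 0.252, adjusted p = 0.000603). By 120 min it was at 10.93 and 10.87 in fc2 and at 9.5 and 9.92 in flu, against 7.56 and 7.77 in wt.

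The same order held for the mitochondrial small heat-shock protein AT5G51440, the DnaJ-type AT2G20560, Hop3 (AT4G12400, which links HSP70 and HSP90) and Fes1A. At 30 min their differences from wt in flu were -0.98 (SE 0.3), -0.81 (SE 0.25), -1.05 (SE 0.404) and -1.17 (SE 0.267), with adjusted p of 0.0152, 0.0163, 0.0466 and 0.0021. For these genes the 2 wt arrays at 30 min lay far apart: AT5G51440 was at 7.1 and 7.36 in flu against 7.54 and 8.87 in wt, and Hop3 was at 4.79 and 4.93 in flu against 4.97 and 6.85 in wt. Without wt 30 min replicate 2 the differences were -0.31 for AT5G51440 (adjusted p = 0.396), -0.27 for AT2G20560 (adjusted p = 0.401) and -0.11 for Hop3 (adjusted p = 0.837), none of them called. Fes1A kept its call with each of the 4 arrays left out, at -0.48 to -1.85.

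Over the 7 list members, 5 were called lower and 0 higher in flu at 30 min, with a median of -0.98, where 19% of all probe sets were called lower and the median over all probe sets was 0.07. At an unadjusted p under 0.05 limma gave the same 0 higher and 5 lower. Scaled to 2 reference genes the count was 3 of 7, with a median of -0.71 while the median of all probe sets moved to 0.33. One of these 2 genes, AT2G28390, itself had a smaller 30 min light response in flu than in wt in limma (-0.54, adjusted p = 0.00929), so this scaling carries its change. It was 2 without wt 30 min replicate 2, 3 without either flu 30 min array and 6 without wt 30 min replicate 1. No setting among these called any of the 7 higher. From dark to 30 min, 7 of the 7 rose in fc2, 3 in flu, 6 in fc1 and 6 in wt, where 1.92%, 24.2%, 3.68% and 3.57% of all probe sets rose. In the dark, the median difference of flu from wt over the 7 was 0.545, with 0 called in either direction. A higher dark level in flu makes its change from dark smaller. At 30 min 1 of the 7 (AT1G54050) was higher in fc2 than in wt (4 at an unadjusted p under 0.05), and in fc1 0 were called (1 higher and 1 lower at an unadjusted p under 0.05).

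**Figure D2:**
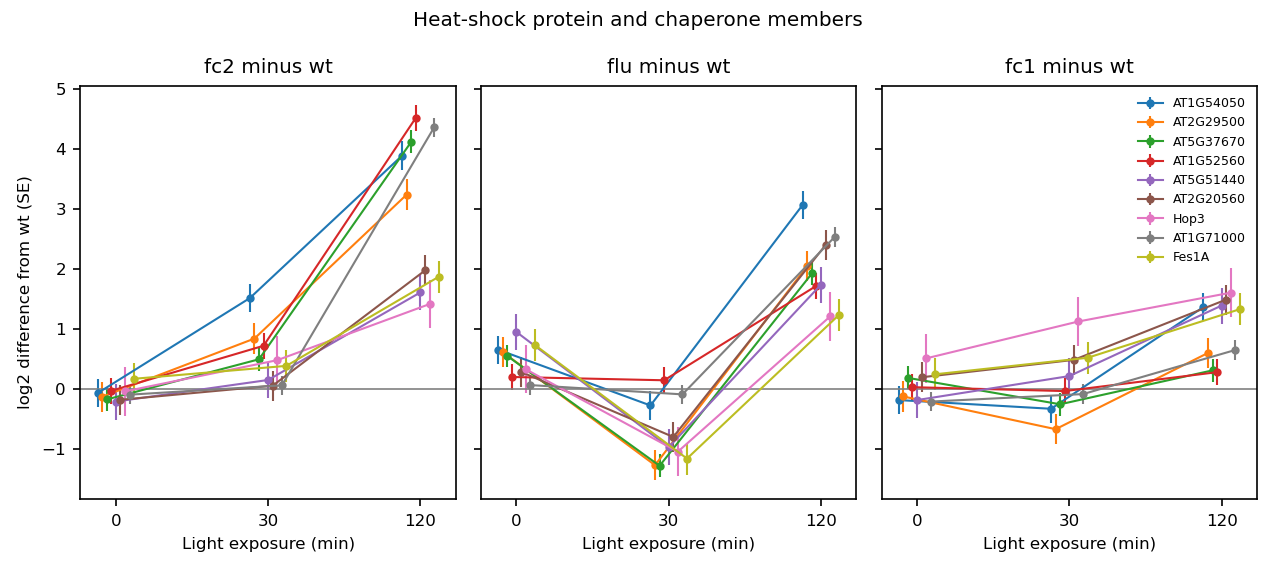
Difference in mean log2 signal from wt at the same time (vertical axis, with SE bars) at 0, 30 and 120 min of light (horizontal axis) for 9 heat-shock protein and co-chaperone members in fc2, flu and fc1. In flu 6 of the 9 were called lower than wt at 30 min, where 19% of all probe sets were, and in fc2 they are at or above wt. AT1G71000 and Fes1A were added after their values were seen, and of the 7 list members 5 were called lower in flu. At 120 min all 9 are above wt in fc2 and flu, as the choice of members requires.

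In fc1 the heat members differed among themselves. At 120 min 4 of the 7 list members were called higher than in wt and 0 lower, where 5.71% and 3.54% of all probe sets were. Their median difference was 1.36. This comparison shares the wt arrays with the choice of members and is a description. Against its own dark level, fc1 at 120 min was higher for 6 of the 7 list members (15.3% of all probe sets), AT5G51440 by the most, at 4.92 (SE 0.3, adjusted p = 4.65e-10). AT5G51440 stood at 9.98 and 10.41 in fc1 at 120 min, against 8.94 and 8.68 in wt, close to the 10.44 and 10.39 of fc2 and the 10.34 and 10.75 of flu. AT5G37670 stood at 6.79 and 6.78 in fc1, against 6.23 and 6.73 in wt, far under the fc2 arrays.

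The 2 calcium members had unlike courses. AT4G27280, an EF-hand calcium-binding protein, was raised by 30 min of light in every genotype, by 2.53 in fc2, 2.75 in flu, 2.79 in fc1 and 2.37 in wt (SE 0.17 each, adjusted p at most 3.06e-08). At 30 min its arrays overlapped between genotypes (11.88 and 11.32 in fc2, 11.66 and 11.83 in flu, against 11.13 and 11.62 in wt). At 120 min it was at 11.24 and 11.48 in fc2 and at 11.2 and 11.38 in flu, against 9.6 and 9.88 in wt. The mutants thus differed from wt by standing near their 30 min level while wt stood lower.

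CML37 (AT5G42380), a calmodulin-like protein, was at 3.89 and 3.71 in flu at 30 min and at 4.36 and 3.8 in fc2, against 4.48 and 5.2 in wt. The flu difference was -1.04 (SE 0.19, adjusted p = 0.000291), and that of fc2 was -0.76 (SE 0.19, adjusted p = 0.0557). At 120 min it was at 6.22 and 6.42 in fc2, at 6.96 and 7.04 in flu and at 6.77 and 6.78 in fc1, against 4.96 and 5.19 in wt. Of the 10 measured genes of the calcium list, 3 were higher and 3 lower in flu at 30 min, where 21.4% and 19% of all probe sets were called. In fc2 2 were lower (0.986% of all probe sets), and in fc1 3 were higher (9.68%).

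Among regulators, the AP2/ERF factor ORA47 (AT1G74930), known from jasmonate responses, was at 6.01 and 6.47 in fc2 and at 7.81 and 8.16 in flu at 120 min, against 4.98 and 5.16 in wt. It was already above wt at 30 min in flu, by 0.65 (SE 0.178, adjusted p = 0.00751), and in fc2 the difference was 0.55 (SE 0.178, adjusted p = 0.187). UPB1 (AT2G47270), a bHLH factor known from the control of peroxidases in roots, was higher in flu at 30 min by 0.78 (SE 0.145, adjusted p = 0.00034). The corresponding values for UPB1 were 0.14 (SE 0.145, adjusted p = 0.757) in fc2 and 0.55 (SE 0.145, adjusted p = 0.0168) in fc1. The RING-type ubiquitin ligase AT1G14200 was higher in fc2 at 30 min, at 9.87 and 9.83 against 9.15 and 9.33 in wt, by 0.61 (SE 0.102, adjusted p = 0.00254).

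AT1G76600 and AT5G10695 were ahead of wt at 30 min in both fc2 and flu. AT1G76600 was at 11.0 and 10.72 in fc2 and at 10.21 and 10.28 in flu at 30 min, against 9.41 and 9.72 in wt. Its differences were 1.29 in fc2 (SE 0.119, adjusted p = 4.61e-06) and 0.68 in flu (SE 0.119, adjusted p = 0.000194), and in fc1 it was 0.18 (SE 0.119, adjusted p = 0.332). Both mutants thus stood clear of the wt arrays while fc1 (9.63 and 9.85) overlapped them. AT5G10695 was at 8.71 and 8.67 in fc2 and at 9.12 and 9.09 in flu, against 7.9 and 8.1 in wt, and it was also higher in fc1, by 0.62 (SE 0.12, adjusted p = 0.00393). AT5G14730 of the mitochondrial stress and redox list was higher in fc2 by 0.8 (SE 0.118, adjusted p = 0.000813) and in flu by 0.69 (SE 0.118, adjusted p = 0.000161), and its fc1 value was -0.24 (SE 0.118, adjusted p = 0.169). Several of these 30 min calls were lost with 1 array left out: those of AT1G14200 in fc2, AT5G10695 in fc2 and fc1 and UPB1 in fc1 without wt replicate 1, that of AT5G10695 in fc2 also without fc2 replicate 1, those of AT5G10695 and UPB1 in fc1 also without fc1 replicate 2, and that of ORA47 in flu without wt replicate 2 or flu replicate 2.

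**Figure D3:**
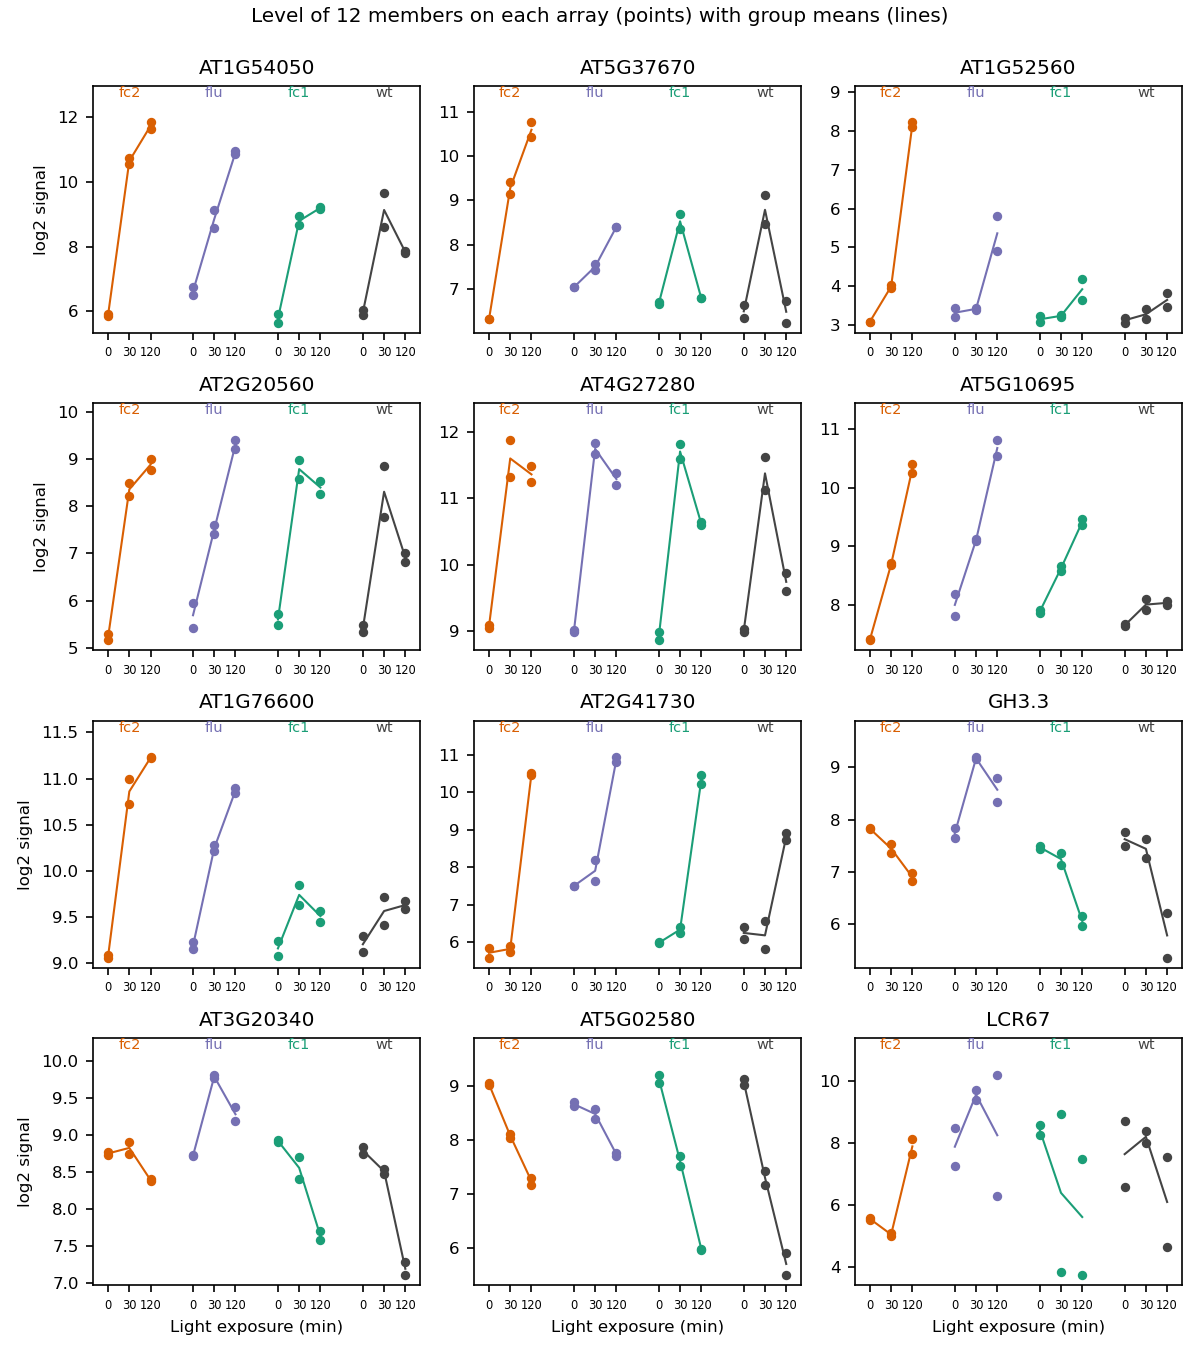
Log2 signal (vertical axis) of 12 members on each of the 24 arrays (points) with lines through the group means, by minutes of light (horizontal axis) within fc2, flu, fc1 and wt. AT1G54050 is already higher in fc2 at 30 min, AT5G37670 is lower in flu than in wt at 30 min and higher at 120 min, AT5G02580 is less low in the mutants than in wt in the light, and the LCR67 replicates lie far apart.

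Of 9 measured detoxification genes, 2 were members. GSTU25 (AT1G17180), a glutathione transferase, was at 7.74 and 7.37 in flu at 30 min, against 6.8 and 6.76 in wt, a difference of 0.78 (SE 0.188, adjusted p = 0.00321). In fc2 it was at 6.89 and 6.83 at 30 min, a difference of 0.08 (SE 0.188, adjusted p = 0.912), and in fc1 it was lower than in wt (-0.61, SE 0.188, adjusted p = 0.0325), a call lost when any 1 of the 4 arrays was left out and with the seed-maturation covariate (adjusted p = 0.072). UGT73B5 (AT2G15480), a glucosyltransferase, was called in none of the 3 mutants at 30 min, with differences of 0.51, -0.05 and 0.26 in fc2, flu and fc1 (SE 0.21 each, adjusted p at least 0.332). At 120 min it was at 8.17 and 7.8 in fc2 and at 7.83 and 7.8 in flu, against 7.04 and 6.54 in wt.

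The members AT5G25450 and nad6 belong to mitochondrial electron transport, for which no list was fixed. Of the 6 measured genes of the mitochondrial stress and redox list, 1 was a member. AT5G25450, a complex III subunit, was at 10.07 and 9.92 in fc2 and at 10.35 and 10.5 in flu at 120 min, against 7.9 and 8.32 in wt. At 30 min it did not stand apart, with 8.65 and 9.22 in fc2 and 8.82 and 9.15 in flu, against 8.58 and 9.37 in wt. The probe set named nad6, a complex I subunit encoded in the mitochondrion, was higher in flu at 30 min by 1.24 (SE 0.353, adjusted p = 0.00985), a call lost without wt replicate 2 or flu replicate 2. AT3G56350, annotated as a manganese superoxide dismutase, was higher in flu at 30 min by 1.43 (SE 0.544, adjusted p = 0.0445), a call lost when any 1 of the 4 arrays was left out.

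Some members lost signal in the light in wt and stood less low in the mutants. AT5G02580 was at 7.3 and 7.17 in fc2, at 7.76 and 7.7 in flu and at 5.99 and 5.97 in fc1 at 120 min, against 5.5 and 5.91 in wt, and all 4 genotypes started between 8.62 and 9.2 in the dark. At 30 min it was already less low in fc2, by 0.78 (SE 0.125, adjusted p = 0.00188), and in flu, by 1.18 (SE 0.125, adjusted p = 9.72e-07), while fc1 differed by 0.3 (SE 0.125, adjusted p = 0.0988). ARL (AT2G44080), an ARGOS-like promoter of cell expansion, was at 9.31 and 9.39 in fc2 and at 9.31 and 9.2 in flu at 120 min, against 7.88 and 8.12 in wt. The aspartyl-protease-like AT5G19120 was at 10.95 on both fc2 arrays and at 11.21 and 11.22 in flu, against 9.88 and 9.8 in wt, with dark levels from 11.74 to 12.08.

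GH3.3 (AT2G23170), an enzyme that joins auxin to amino acids, rose in flu from its dark level by 1.43 at 30 min (SE 0.208, adjusted p = 2.21e-05). It was at 9.19 and 9.15 in flu at 30 min, against 7.62 and 7.26 in wt, a difference of 1.73 (SE 0.208, adjusted p = 3.86e-06), and fc2 was at 7.53 and 7.36. At 120 min it was at 6.82 and 6.98 in fc2 and at 8.34 and 8.8 in flu, against 5.36 and 6.21 in wt. AT3G20340 was likewise higher in flu at 30 min, by 1.28 (SE 0.106, adjusted p = 5.43e-08), and was called neither in fc2 nor in fc1 at that time.

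Sorted by the 30 min response of wt, 60 members rose from the dark level, 12 fell and 64 were not called. Here 44.1% of members rose and 8.82% fell, against 3.57% and 2.84% of all probe sets. Of the 60, light at 30 min also raised 58 in fc2, 50 in flu and 56 in fc1, where 1.92%, 24.2% and 3.68% of all probe sets rose. The 60 were picked as raised by light in wt, and they were not compared with other probe sets raised in wt. The median change of the 60 from dark at 120 min was 2.72 in fc2, 2.89 in flu and 1.77 in fc1, against 0.89 in wt. Among the 12 that fell in wt, the median at 120 min was -0.89 in fc2, -0.56 in flu and -2.29 in fc1, against -2.34 in wt. The 64 not called had medians of 1.67 in fc2, 1.61 in flu and 0.24 in fc1, against -0.1 in wt. The fc2, flu and wt values at 120 min share arrays with the choice of members and are a description.

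Relative to its own dark level, 117 members were higher at 120 min in both fc2 and flu, and 33 of these were below their dark level in wt. Another 11 were below the dark level in both mutants. From 30 to 120 min the group mean went down in 26 members in fc2, 31 in flu, 73 in fc1 and 93 in wt, counted by sign with no test. The fc2, flu and wt counts in this paragraph use the 120 min arrays that chose the members. Choosing high fc2 and flu and low wt values favours such counts, so they are only a description. The shares over all probe sets were not counted.

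In the dark few members were called different between a mutant and wt. In fc2 0 were called higher and 0 lower, against 0.018% of all probe sets in each direction, and at an unadjusted p under 0.05 limma gave 0 higher and 7 lower. In flu 5 were higher and 7 lower (3.68% and 5.15%, against 1.62% and 1.7% of all probe sets), with 19 higher and 22 lower at an unadjusted p under 0.05. In fc1 0 were higher and 3 lower (against 1.31% and 1.43%), with 11 higher and 8 lower at an unadjusted p under 0.05. The shares of all probe sets at an unadjusted p were not counted. Among named members AT2G41730 had the largest dark difference that was called, at 7.51 and 7.5 in flu against 6.08 and 6.42 in wt, by 1.25 (SE 0.201, adjusted p = 0.00157). JRG21 (AT3G55970), a jasmonate-regulated gene, was lower in the dark in flu (-0.82, SE 0.192, adjusted p = 0.0235) and in fc1 (-0.76, SE 0.192, adjusted p = 0.0435), and it was at 4.89 on both fc2 arrays, against 4.96 and 4.97 in wt. Both JRG21 calls were lost when any 1 array of the comparison was left out.

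At 30 min, a comparison that shares no array with the choice of members, 30 members were higher in fc2 than in wt and 1 was lower. That is 22.1% of members higher, against 0.531% of all probe sets, and 0.735% lower, against 0.986%. The median difference over members was 0.23, and over all probe sets it was -0.01. The 1 named gene that was lower in fc2 was AT2G32020, at 5.24 and 4.94 against 5.83 and 6.3 in wt (-0.98, SE 0.155, adjusted p = 0.00161). The count of 30 fell without fc2 30 min replicate 1 and grew without wt 30 min replicate 2, and the share of all probe sets called higher moved the same way each time.

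In flu at 30 min 53 members were higher and 21 lower than in wt, or 39% and 15.4% of members. Of all probe sets, 21.4% were higher and 19% lower, so the members' excess was on the higher side and their share of lower calls was below the background. Scaled to the reference genes, 77 members were higher and 11 lower, but 45.8% of all probe sets were then called higher. In fc1 24 were higher and 8 lower, 17.6% and 5.88%, against 9.68% and 8.73% of all probe sets. The fc1 count of higher members depended on single arrays. It fell steeply without wt 30 min replicate 1 or fc1 30 min replicate 2 and grew without wt 30 min replicate 2. The share of all probe sets called higher moved the same way each time. Named genes higher in fc1 included AR781 (1.59, SE 0.309, adjusted p = 0.00389), AT2G22880, a VQ-motif protein (0.86, SE 0.2, adjusted p = 0.00919), and AT2G36220 (0.74, SE 0.118, adjusted p = 0.0012). Without wt 30 min replicate 1 the calls of AR781 and AT2G22880 were lost, that of AT2G22880 also without fc1 30 min replicate 2.

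**Figure D4:**
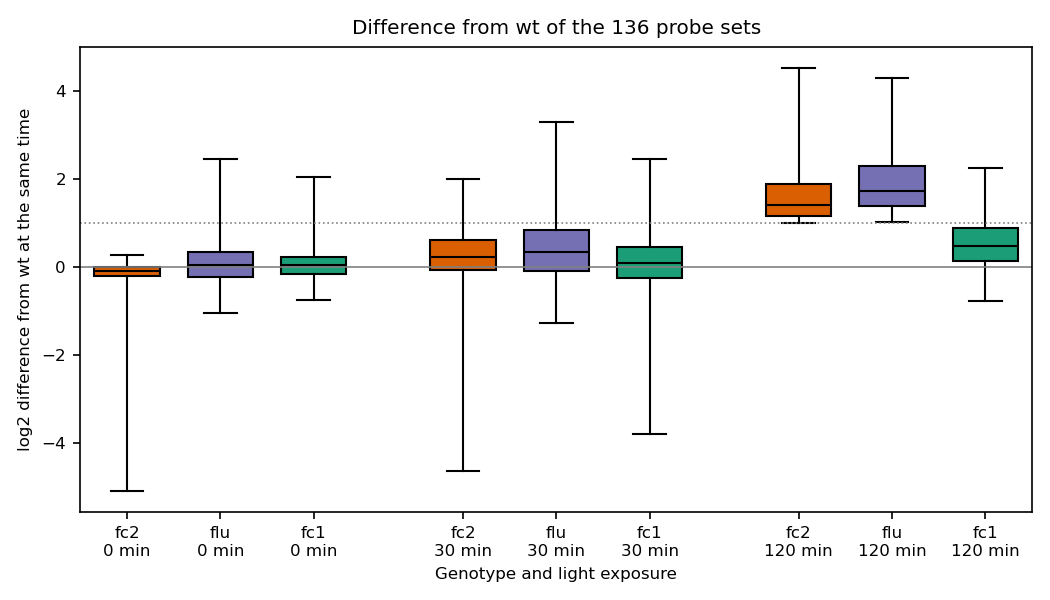
Box plots of the difference in mean log2 signal from wt at the same time for the 136 members (vertical axis) by genotype and time (horizontal axis), with the median, quartiles and full range. The medians lie near 0 in the dark and at 0.23 in fc2 and 0.33 in flu at 30 min, the dotted line marks the threshold of 1 that fc2 and flu had to reach at 120 min, and the fc1 median at 120 min is 0.48.

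Light response at 30 min, each genotype against its own dark arrays, raised 74 members in fc2, 85 in flu, 69 in fc1 and 60 in wt. These were 54.4%, 62.5%, 50.7% and 44.1% of members, against 1.92%, 24.2%, 3.68% and 3.57% of all probe sets. It lowered 5 members in fc2, 6 in flu, 16 in fc1 and 12 in wt (background 1.1%, 23.8%, 3.55% and 2.84%). In flu nearly as many probe sets fell as rose across the array, and 6 members (4.41%) were among those that fell.

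The difference between the light responses of a mutant and wt at 30 min was larger than in wt for 19 members in fc2 and smaller for 0, where 0.18% and 0.261% of all probe sets were called. At an unadjusted p under 0.05 the fc2 counts were 51 larger and 2 smaller, and the shares of all probe sets at that p were not counted. Each array left out other than the 2 wt arrays at 30 min cut the 19 steeply, and the share of all probe sets called larger fell as well. In flu 46 were larger and 18 smaller, or 33.8% and 13.2%, against 13.9% and 14% of all probe sets. All 18 that were smaller in flu belong to the 60 members that 30 min of light raised in wt, a class defined on the same wt arrays. In fc1 2 were larger and 0 smaller (background 0.162% and 0.027%), with 24 larger and 5 smaller at an unadjusted p under 0.05, and the 2 became 0 when wt 0 min replicate 2, wt 30 min replicate 1, fc1 0 min replicate 1 or fc1 30 min replicate 2 was left out.

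**Figure D5:**
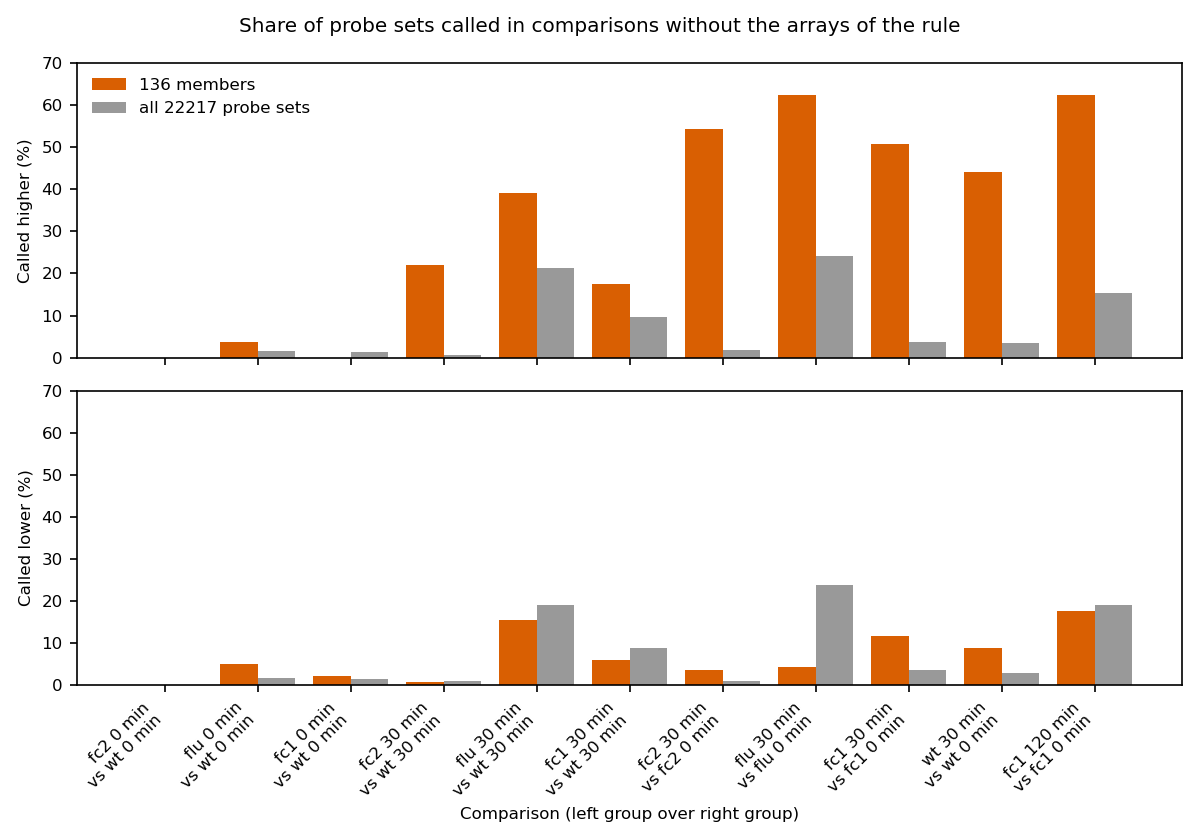
Share of the 136 members and of all 22217 probe sets (vertical axis, percent) called higher (top) and lower (bottom) in 11 comparisons (horizontal axis) that use none of the arrays that chose the members. The members' share of higher calls is above that of all probe sets in each 30 min comparison, and in flu against wt at 30 min their share of lower calls is 15.4% beside 19% of all probe sets.

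At 120 min fc1 against wt shares the wt arrays with the choice of members, so its values stand beside those of fc2 and flu and support nothing. The fc1 differences ran from -0.78 to 2.23 with a median of 0.48. Of the 136, 28 were at least 1 higher in fc1 and 26 were below wt, and 8 reached the smaller of the fc2 and flu differences. In all 62 were called higher and 3 lower, with 5.71% and 3.54% of all probe sets called. Both the 62 and the 5.71% fell steeply without wt 120 min replicate 2 or fc1 120 min replicate 2.

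Named members with high fc1 values were AT1G19020 (1.84, beside 1.18 in fc2 and 2.39 in flu), CML37 (1.7, beside 1.25 and 1.93) and Hop3 (1.6, beside 1.41 and 1.21). The call of Hop3 was lost without wt 120 min replicate 2 and without fc1 120 min replicate 2. JRG21 was lower in fc1 than in wt (-0.68, beside 1.23 and 1.22), a call lost with any 1 of the 4 arrays left out. Against its own dark arrays, which are independent of the choice, fc1 at 120 min raised 85 members and lowered 24, 62.5% and 17.6%, against 15.3% and 19.1% of all probe sets. Raised were AT2G41730, by 4.35 (SE 0.201, adjusted p = 1.4e-11), and CML37, by 3.9 (SE 0.19, adjusted p = 2.65e-11), and lowered were AT5G02580 (-3.15, SE 0.125, adjusted p = 2.29e-12) and AT5G19120 (-2.35, SE 0.091, adjusted p = 1.63e-12).

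Some members moved with the seed-maturation genes. LCR67 (AT1G75830), a plant defensin of the PDF1 type, was at 7.65 and 8.14 in fc2 and at 10.21 and 6.3 in flu at 120 min, against 4.66 and 7.54 in wt. Its flu and wt arrays overlapped, and the higher array in each was the one with the higher seed-maturation mean. With that mean as a covariate, its difference from wt was 1.34 in fc2 and -0.08 in flu. A probe set with no listed gene, noted after its values were seen, had 7.8 and 9.39 in fc2 and 12.33 and 10.13 in flu, against 3.82 and 10.05 in wt. In all, 7 members followed the seed-maturation mean with a slope above 0.5, and 11 fell under the threshold with the covariate. Of these 11, LCR67 (slope 1.163), AT3G56350 (0.488), AT4G14270 (0.098) and AT1G25275 (0.012) had a named gene. AT4G14270 and AT1G25275 thus had little slope, and with the covariate their flu differences were 0.952 and 0.996, just under the threshold. The heat-shock, calcium and other members described above, apart from AT3G56350 and the threshold neighbour AT1G25275, kept both differences at 1 or more with the covariate.

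Other genes of the lists, which were chosen with earlier results of these data known, give the setting of the members. At 30 min 0.531% of all probe sets were higher and 0.986% lower in fc2, 21.4% and 19% in flu, and 9.68% and 8.73% in fc1, so counts in flu near 1 in 5 of a list in each direction are at the background. Of the 10 measured small heat-shock proteins, 3 were higher and 1 lower in fc2 at 30 min, 1 higher and 6 lower in flu, and 1 higher and 1 lower in fc1. Their medians were 0.6, -0.86 and -0.15, against -0.01, 0.07 and -0.05 over all probe sets. ATHSP22.0, which did not reach the flu threshold, was at 7.67 and 7.73 in fc2 at 30 min and at 5.14 and 5.5 in flu, against 5.93 and 6.25 in wt. It was higher in fc2 (1.61, SE 0.145, adjusted p = 4.6e-06) and lower in flu (-0.77, SE 0.145, adjusted p = 0.000385), so it differed from wt in opposite directions in the mutants.

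Of the 10 measured chaperones and co-chaperones, 0 were called in fc2 at 30 min (0 higher and 2 lower at an unadjusted p under 0.05 in limma), and 1 was higher and 5 lower in flu. AT5G48570, an FKBP-type peptidyl-prolyl isomerase, was at 4.48 and 4.4 in flu at 30 min, near its dark level of 4.46 and 4.7, against 6.28 and 8.08 in wt, a difference of -2.74 (SE 0.389, adjusted p = 2.39e-05). Of 9 detoxification genes, 0 were called in fc2 at 30 min (2 higher at an unadjusted p under 0.05), and 3 were higher and 2 lower in flu. Of 6 mitochondrial stress and redox genes, 2 were higher in fc2, and 3 were higher and 1 lower in flu. Of 3 measured WRKY factors, 1 was higher in fc2 and 2 were higher in flu, WRKY53 by 1.27 (SE 0.186, adjusted p = 3.15e-05), and none was a member.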

How the data were processed

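Whole seedlings were profiled on 24 Affymetrix arrays from biotin-labelled cRNA, per the labels' protocols. The deposited log2 signals come from RMA, a step the authors ran, as the submitters' processing notes name it, and its version is not given in the sources used here. They were used unchanged. RMA compresses differences near background, and signals of different probe sets are not comparable as levels.

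A mean per group was fitted with limma 3.58.1 (R 4.3.3) over all 24 arrays, with empirical Bayes moderation. Two-sided p-values were adjusted by the Benjamini-Hochberg method over 22217 probe sets within each comparison, and called means an adjusted p under 0.05. For counts at an unadjusted p under 0.05, the shares over all probe sets were not counted. Tables and figures used Python 3.11.15, pandas 2.3.3 and matplotlib 3.10.9. The fit was tested on simulated data.

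Gene names came from the platform table and RefSeq gene table. Named genes were the 15 largest shared differences, list members, up to 5 called members per comparison and direction, and the threshold neighbours, all with exactly 1 gene; others are said to be chosen later or are described beside them. Members and lists were chosen with earlier results of these data known. Heat-shock factor, NAC and MYB lists had 0 measured genes.

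Alternatives were scaling to 2 reference genes, leaving out the dimmest 40% of probe sets, trend and robust moderation, a replicate block, each array left out, a seed-maturation covariate and, chosen after seeing the data, equal spread on all arrays. The seed-maturation covariate was planned for the counts of called members but not for the choice of members. Replicate numbers did not pair arrays: over 66 pairs of groups the deviations correlated at -0.536 to 0.4, and 19 exceeded 0.1.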

Additional observations from a re-analysis of the deposited data

Results flagged for a closer look

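The following light responses at 30 min differed between a mutant and wt in the test of the difference itself, given as the mutant's log2 change from dark minus that of wt. In fc2 the response was larger for AT1G54050 (1.58), AT1G76600 (1.42), AT5G14730 (1.04), AT5G10695 (0.94) and AT1G14200 (0.74). AT1G76600 and AT5G14730 kept the call with each of 8 arrays left out in turn, and the other 3 kept it in 1 of 8. In flu it was larger for GH3.3 (1.62), AT5G02580 (1.59), nad6 (1.5), GSTU25 (1.42) and AT3G20340 (1.35). It was smaller in flu for AT5G51440 (-1.92), Fes1A (-1.9), AT2G29500 (-1.88), AT5G37670 (-1.83) and AT1G66080 (-1.17). These flu calls were kept with each of 8 arrays left out, except nad6 (kept in 3 of 8) and AT1G66080 (kept in 5 of 8). For the 5 genes with smaller responses, the chloroplast markers RCA and PRK were also lower in flu at 30 min, averaging 10.97 and 10.79 in flu against 12.285 and 12.49 in wt, and the part of this in the result was not tested. A smaller response can also hold a higher dark level in flu. Over the 7 heat-list members, with AT5G51440, AT2G29500 and AT5G37670 among them, the median dark difference of flu from wt was 0.545 (0 called). Fes1A and AT1G66080 are not among the 7. At 30 min the flu differences from wt of AT2G29500, AT5G37670 and Fes1A were -1.275, -1.285 and -1.165, smaller in size than their differences in response.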

How the results depend on the processing

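Of 173 alternative values, 143 stayed within 1.5 times the main count, and 88 of 95 did among settings that keep all arrays. The number of members was 136, and 83 when scaled to the reference genes, 18 with both differences at least 2, 59 as means per named gene and 130 to 165 with 1 array left out; 24 members fell under the threshold without wt 120 min replicate 1. The 59 is a change of unit, since probe sets with no listed gene or several genes are left out of it. The 136 members also held 59 named genes. In the dark, fc1 had 1 member higher without the dimmest 40%, 2 with trend and robust moderation and 1 with the seed-maturation covariate, against 0. The larger fc1 response was 1 with that covariate, against 2. With 1 array left out, members called higher were 18 to 49 in fc2 at 30 min, 43 to 55 in flu, 4 to 45 in fc1, 2 to 6 in dark flu and 33 to 56 in fc1 at 120 min against wt; larger responses were 5 to 22 in fc2, 38 to 51 in flu and 0 to 5 in fc1. Each such fit leaves 1 array in a group, and the counts went down in some fits and up in others. The shares of all probe sets called moved as well, and the cause was not tested. With the replicate number as a block, although the numbers do not pair the arrays, fc2 at 30 min gave 29, flu 53 and fc1 26, and 15 of 15 counts stayed within 1.5 times. RMA signals near background limit low members such as AT1G52560.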
